A study of Mus musculus with 19 samples.

Results

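The genes described here carry the signal of leukaemia inhibitory factor (LIF) from the cell surface to STAT3: the receptor chains Lifr, Il6st and Osmr, the kinases Jak1 and Jak2, the transcription factor Stat3 and its feedback inhibitor Socs3. They were chosen by name, and 6 of the 7 have a row in the deposited expression matrix of 12778 genes. Osmr has no row there and is described only from a table of comparisons that the authors deposited. LIF brings LIFR and gp130, the protein of Il6st, together on the cell surface; the Janus kinases bound to them phosphorylate the receptor and then STAT3, which enters the nucleus and activates target genes. One such target is Socs3, whose protein binds gp130 and the kinases and shuts the signal down. In mouse embryonic stem cells grown with serum and LIF this pathway sustains self-renewal, and Klf4, Tfcp2l1 and Gbx2 are among its known targets there. The related cytokine oncostatin M signals in the mouse mainly through OSMR paired with gp130.

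The study used mouse embryonic stem cells (ESC) and induced pluripotent stem cells (iPSC). The iPSC came from embryonic fibroblasts given Oct4, Sox2 and Klf4, and had gone through more than 18 passages since then. All groups, controls included, were grown in medium with LIF and fetal bovine serum, so no group shows the pathway without added LIF. The iPSC were wild type (WT), knockout (KO) for the miR-290 cluster, KO for the miR-302 cluster, or KO for both clusters (double KO), and the ESC were miR-290 KO or miR-302 KO. These microRNA clusters are active in pluripotent cells. Each KO iPSC group had 2 colonies with 2 libraries per colony, WT iPSC had 3 libraries, and each ESC group had 2 libraries, which gives 19 libraries and 13 samples. Colonies were derived independently, but the series description makes an exception for the WT iPSC. The WT samples may therefore share a derivation. The titles of the ESC libraries name no colony, so the 2 libraries of an ESC group may share a source too. They were fitted as separate samples, and p-values measure only the spread between the samples. The deleted microRNAs are not read by 3′ end sequencing of messenger RNA, so the genotypes could not be checked from the matrix.

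Levels are given as CPM (reads scaled to a common library total), recovered from the deposited log2 values, with the mean and SD over samples (colonies for KO iPSC, libraries for the others). The shallowest library had 6435997 recovered reads and the deepest 24974510; the median was 17459410. The second library of miR-302 KO colony 1 correlated least with its group, with a mean r of 0.852 over all genes, and it bears on the miR-302 KO values of Stat3 and Socs3. The double KO cells go against the markers of the label iPSC. The summed level of 9 pluripotency genes was 195 CPM in the lowest double KO library, with a median of 250 CPM over the 4, and 2851 to 4536 CPM in all other libraries, and Nanog averaged 2.34 CPM in the double KO against 689 CPM in WT. Fgf4, at 177 CPM, made up most of what was left. Of 12 fibroblast markers, 5 were measured, and they summed to 4.87 to 29.6 CPM in the double KO and 3.23 to 18.6 CPM elsewhere. The sum hides changes in both directions. In double KO against WT the log2 fold changes were -3.86 for Thy1, -2.72 for Pdgfrb and -1.92 for Col1a1, but 2.05 for Fbn1 and 2.55 for Twist1. Only Thy1 and Pdgfrb had an adjusted p under 0.05 by limma. The cells are called double KO here, and the part of this loss of pluripotency genes in the results below was not tested. In bulk samples, fewer cells of a type and less RNA per cell cannot be told apart.

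The microRNAs are shown first, because both clusters encode members with the same seed, the bases 2 to 8 that pair with a target. RefSeq entries (GRCm38.p6) matched 26 mature microRNAs of the clusters, 17 from the miR-290 cluster on chromosome 7 and 9 from the miR-302 cluster on chromosome 3. Of these, 5 share the seed AAGUGCU, in capitals below, and are printed 5′ to 3′.
mmu-miR-291a-3p: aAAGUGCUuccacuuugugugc
mmu-miR-294-3p: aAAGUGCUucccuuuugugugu
mmu-miR-295-3p: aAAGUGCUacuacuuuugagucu
mmu-miR-302b-3p: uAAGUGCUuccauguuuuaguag
mmu-miR-302d-3p: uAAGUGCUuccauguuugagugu
The first 3 come from the miR-290 cluster and the last 2 from the miR-302 cluster, so a cell keeps copies of this seed when only one cluster is deleted. Of miR-302a only the 5p entry was matched, so the members with this seed may be incomplete.

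Sites matching this seed were then looked for in the 3′ UTR of each of the 7 genes (GENCODE, GRCm38, 1 principal transcript per gene). A site was AGCACTT (pairing with bases 2 to 8), or GCACTTA (pairing with bases 2 to 7 and followed by A), or both in one as AGCACTTA, on the transcribed strand. Sites for this seed were found in all 3 receptor genes and in none of Jak1, Jak2, Stat3 and Socs3. The other seeds of the deleted microRNAs were not searched on their own, so sites for them may be present in any of the 7 genes. They are shown with 10 bases on either side, the match in capitals, so that the letters behind these matches can be read.
Osmr, AGCACTTA, chr15:6814214-6814221, minus strand: caatttccatAGCACTTAcacgcaccag
Il6st, AGCACTT, chr13:112505290-112505296, plus strand: tggttgaggaAGCACTTtatccagaat
Il6st, GCACTTA, chr13:112505990-112505996, plus strand: gagttgatatGCACTTAgttggatgca
Lifr, GCACTTA, chr15:7194723-7194729, plus strand: tactgcttagGCACTTActcagataga
The 3′ UTRs of Lifr and Il6st, at 6320 and 5641 bases, are the longest of the 7, and that of Osmr has 1794 bases. Among 11839 genes of the matrix with an annotated 3′ UTR, 19.4% held a site and 3.4% held the full AGCACTTA; among the 5948 with at least 1000 bases, the shares were 32.4% and 5.8%. All 7 genes here have at least 1000 bases, and 3 of 7 (42.9%) held a site; with so few genes this was not tested and is not read as particular to the receptors. A match describes the letters of the annotated UTR and does not show pairing or regulation.

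The receptor chain Lifr was highest in the double KO. Its level was 20.6, 20.4 and 31.1 CPM in the 3 WT libraries. In the double KO it was 39.9 and 45.7 CPM in colony 1 and 72.7 and 68 CPM in colony 2. All 4 double KO libraries lay above all WT libraries, and colony 2 lay above colony 1. Here and below, such separation only describes the libraries, because its share over all genes was not counted. The mean was 56.6 ± 19.5 CPM (SD, n = 2) against 24 ± 6.12 CPM (n = 3) in WT, and the log2 fold change was 1.25 (SE 0.27), with an adjusted p of 0.00197 by limma. The other groups were close together: 28.8 ± 0.368 CPM in miR-302 KO iPSC, 30.9 ± 5.93 CPM in miR-290 KO ESC, 32.4 ± 1.28 CPM in miR-290 KO iPSC and 35.9 ± 5.43 CPM in miR-302 KO ESC (n = 2 each). The libraries of the first 3 overlapped those of WT, whereas both miR-302 KO ESC libraries, at 32.1 and 39.8 CPM, lay above the highest WT library; ESC were not tested against WT, and none of these groups was called against another in the comparisons made.

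Il6st encodes gp130, the chain shared by most receptors of the interleukin-6 family, and its high level in the double KO came from a single colony. It measured 33.3, 32.2 and 29.8 CPM in WT, 31.9 and 37.4 CPM in double KO colony 1, and 90 and 96.3 CPM in colony 2. Colony 1 overlapped WT, and colony 2 was 2.69-fold above colony 1. The group mean of 63.9 ± 41.4 CPM (SD, n = 2) gave a log2 fold change of 0.88 (SE 0.33) against 31.8 ± 1.8 CPM (n = 3) in WT, with an adjusted p of 0.0404 by limma. Without colony 2 the log2 fold change was 0.16 and the adjusted p 0.655. The miR-290 KO groups were level with WT, at 34.0 ± 0.173 CPM in iPSC and 31.9 ± 2.6 CPM in ESC (n = 2 each). The miR-302 KO groups had the lowest means, 20.1 ± 0.882 CPM in iPSC and 22.1 ± 2.02 CPM in ESC. The libraries of miR-302 KO iPSC, from 13.5 to 25.4 CPM, all lay below those of WT, but the log2 fold change of -0.69 (95% interval -1.4 to 0.01) did not pass the test.

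Osmr, which lies beside Lifr on chromosome 15 (chr15:6813577-6874969 and chr15:7090614-7197489, GRCm38), can be read only from the authors' deposited table of double KO against WT. That table gives it a log2 fold change of 9.96 (SE 1.07), a mean normalized count of 400 and an adjusted p of 2.9e-19. In the same deposited table the log2 fold changes of the other members were 0.99 for Lifr, 1.70 for Jak1, 3.85 for Jak2, 0.92 for Stat3 and 1.61 for Socs3. By that table Osmr had the largest change of the members, and Il6st was not listed. No level per library can be given for Osmr. A mean count of 400 with a log2 fold change of 9.96 places WT near the floor, so the size of this fold is uncertain. The authors' mean counts match means over single libraries, so their p-values may treat libraries of a colony as replicates. The limma fit here averaged those libraries first.

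**Figure D1:**
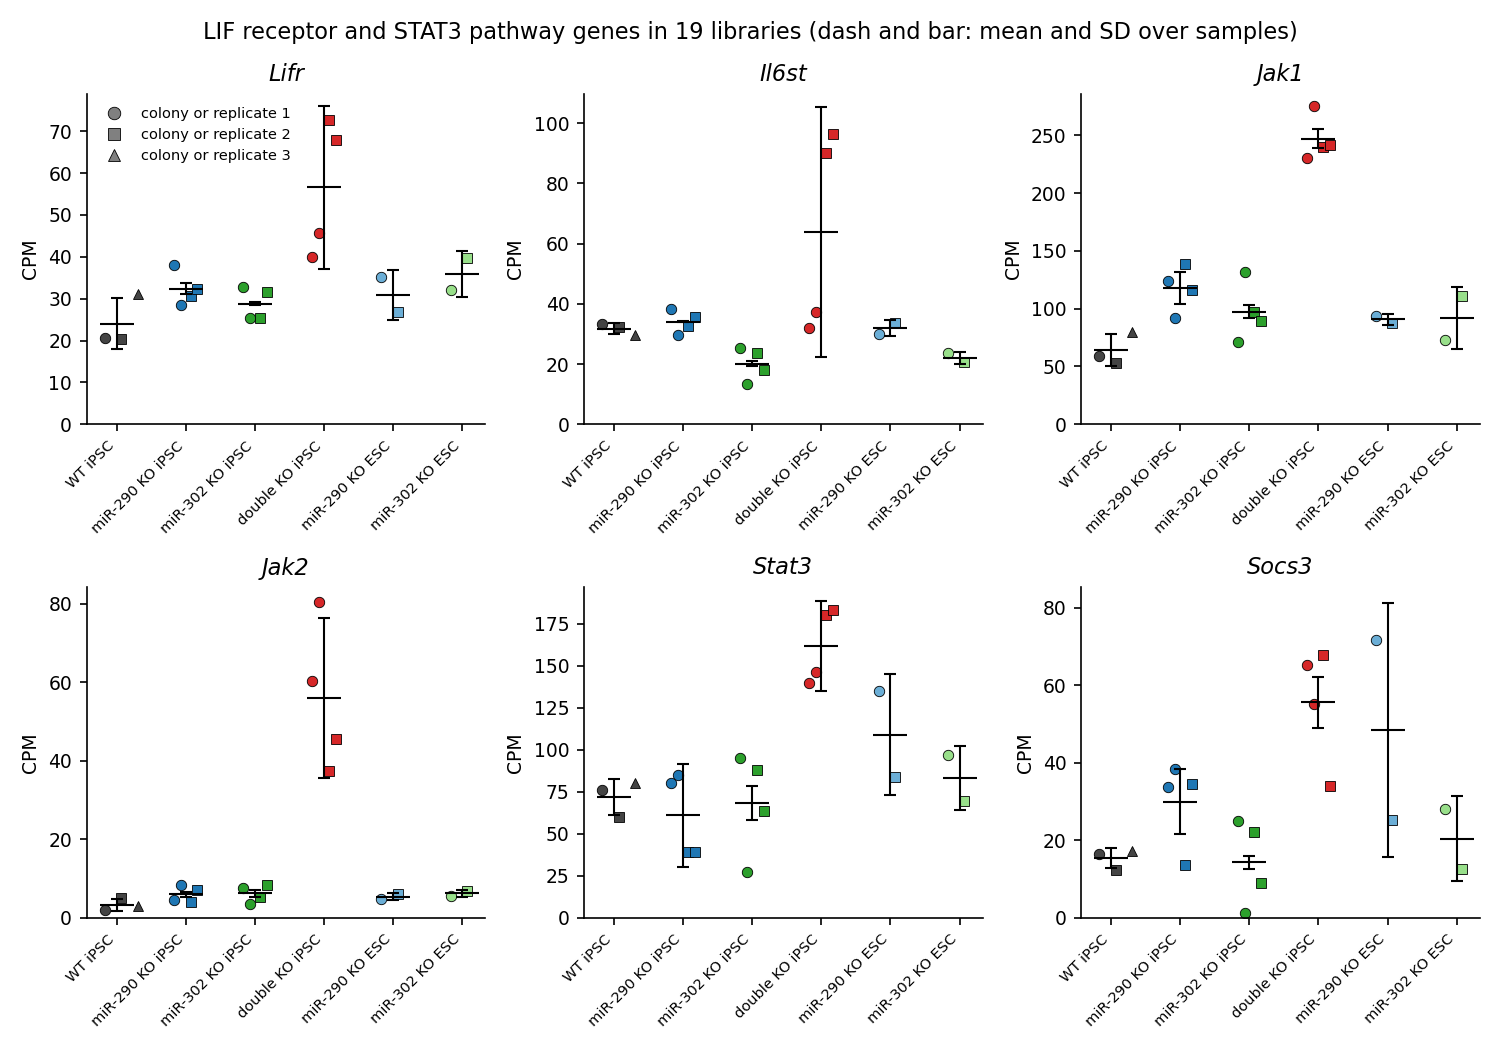
Level of each measured gene (vertical axis, CPM) in the 19 libraries, by group (horizontal axis). Points are libraries, shapes are colonies or replicates, and dashes with bars are the mean and SD over samples. The double KO libraries of Lifr, Jak1, Jak2, Stat3 and Socs3 all lie above those of WT, while Il6st is raised only in double KO colony 2. The share of all genes that separate in this way was not counted.

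The kinase Jak1, which binds gp130 and is the principal kinase of this receptor family, rose in the double KO and had intermediate levels in the single KO groups. WT libraries had 59.4, 53.2 and 79.8 CPM. The 4 double KO libraries had 230, 275, 240 and 242 CPM, with almost no difference between colonies. The means were 247 ± 8.15 CPM (SD, n = 2) and 64.1 ± 13.9 CPM (n = 3), which is 2.00 on the log2 scale (SE 0.23, adjusted p of 1.75e-05 by limma). In miR-290 KO iPSC, Jak1 measured 124 and 91.8 CPM in colony 1 and 139 and 116 CPM in colony 2. These libraries all lay above WT, but the log2 fold change of 0.89 (95% interval 0.40 to 1.38) had an adjusted p of 0.0719 by limma. It passed under 5 of the 22 alternatives, with adjusted p-values from 0.0331 to 0.482 over all of them, and the authors' deposited table lists it as higher, at 0.76 (SE 0.23, adjusted p of 0.0172). That deposited p-value may treat libraries of a colony as replicates, unlike the limma fit here. The means of miR-302 KO iPSC, miR-302 KO ESC and miR-290 KO ESC were 97.5 ± 5.64, 92.3 ± 26.8 and 90.7 ± 4.44 CPM (n = 2 each), and their order is within their spread. Against miR-290 KO iPSC the double KO was higher by 1.11 (SE 0.25, adjusted p of 0.00465 by limma), and against miR-302 KO iPSC by 1.41 (SE 0.25, adjusted p of 0.00063).

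Jak2, a second kinase of the receptor complex, had the largest change of the measured members. It was nearly silent in WT, at 1.85, 4.91 and 2.97 CPM. The double KO had 60.4 and 80.3 CPM in colony 1 and 37.4 and 45.4 CPM in colony 2. The lowest double KO library was thus far above every other library, of which the highest had 8.43 CPM. The mean of 55.9 ± 20.4 CPM (SD, n = 2) was 17.2-fold the WT mean of 3.24 ± 1.55 CPM (n = 3), and the log2 fold change was 4.13 (SE 0.39, adjusted p of 3.67e-06 by limma). The other 4 groups, all with n = 2, fell between 5.34 ± 0.869 CPM in miR-290 KO ESC and 6.24 ± 0.837 CPM in miR-302 KO ESC, with miR-290 KO iPSC at 6.03 ± 0.647 and miR-302 KO iPSC at 6.20 ± 0.891 CPM. Their differences were smaller than their spread. The log2 fold changes of the single KO iPSC against WT were 0.92 (95% interval 0.07 to 1.76) for miR-290 and 0.94 (0.09 to 1.79) for miR-302, with adjusted p-values of 0.264 and 0.305 by limma. Colony 1 of the double KO was higher than colony 2 in Jak2, whereas colony 2 was higher in Lifr, Il6st and Stat3.

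Stat3, the transcription factor that LIF activates, rose in the double KO. WT had 76.2, 59.8 and 80.1 CPM, and the double KO had 140 and 146 CPM in colony 1 and 180 and 183 CPM in colony 2. No double KO library overlapped WT. The means were 162 ± 26.8 CPM (SD, n = 2) and 72.0 ± 10.8 CPM (n = 3), which is 1.21 on the log2 scale (SE 0.32, adjusted p of 0.00803 by limma). Without colony 2 the value was 1.04 and no longer passed, with an adjusted p of 0.0668. The colonies of miR-290 KO iPSC differed by 2.11-fold: colony 1 had 80.1 and 85.2 CPM, inside or just above the WT range, and colony 2 had 39.2 and 39.3 CPM, below it. In miR-302 KO iPSC the libraries had 95.3 and 27.1 CPM in colony 1 and 87.7 and 63.4 CPM in colony 2, and the low value is the library that correlated least with its group. The log2 fold change of miR-302 KO against WT was -0.21 with it and 0.25 without it and the shallowest library, and neither passed. The ESC groups had 109 ± 35.8 CPM (miR-290 KO) and 83.3 ± 19.2 CPM (miR-302 KO), n = 2 each, with libraries from 69.7 to 135 CPM. Below the double KO, the order of the group means (miR-290 KO ESC, miR-302 KO ESC, WT, then 68.4 ± 10.2 CPM in miR-302 KO iPSC and 60.9 ± 30.7 CPM in miR-290 KO iPSC) is within the spread.

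Socs3, the feedback inhibitor, rose in the double KO. WT had 16.5, 12.3 and 17.2 CPM. The double KO had 65.2 and 55.2 CPM in colony 1 and 67.8 and 34.1 CPM in colony 2, all above WT. The means were 55.6 ± 6.52 CPM (SD, n = 2) and 15.4 ± 2.65 CPM (n = 3), which is 1.85 on the log2 scale (SE 0.49, adjusted p of 0.008 by limma). Without double KO colony 1 the value was 1.70 and the adjusted p 0.0585. The miR-290 KO iPSC had 33.8, 38.3 and 34.5 CPM in 3 libraries and 13.5 CPM in the first library of colony 2, with a mean of 30 ± 8.5 CPM and a log2 fold change of 0.88 (95% interval -0.20 to 1.95) that did not pass. The miR-302 KO iPSC ranged from 1.17 to 25 CPM, and the lowest value is again the second library of colony 1. Their log2 fold change against WT was -0.75, and 0.31 when that library and the shallowest library were left out; neither passed. The miR-290 KO ESC had 71.7 and 25.2 CPM and the miR-302 KO ESC 28.2 and 12.6 CPM, so the means of 48.5 ± 32.9 and 20.4 ± 11 CPM (n = 2 each) do not differ beyond their spread.

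Socs3 was the only gene of the 7 with a STAT motif in the promoter windows searched. RefSeq promoters (GRCm38.p6, 250 bases before to 50 after the start, 8 windows for the 7 genes) were searched on both strands for TTCNNNGAA, the spacing that STAT proteins bind, and for the stricter TTCCNGGAA, every match of which is also a TTCNNNGAA. The Socs3 window, chr11:117969317-117969616, minus strand, holds TTCTTAGAA at 154 bases before the RefSeq start, in capitals here.
Socs3 promoter: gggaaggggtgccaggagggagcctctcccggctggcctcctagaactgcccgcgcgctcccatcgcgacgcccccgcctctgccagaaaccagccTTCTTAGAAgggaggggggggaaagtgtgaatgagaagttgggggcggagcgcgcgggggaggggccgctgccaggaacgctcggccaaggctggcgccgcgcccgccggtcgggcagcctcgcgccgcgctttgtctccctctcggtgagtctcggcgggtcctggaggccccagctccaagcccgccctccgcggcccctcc
Of 32851 RefSeq promoter windows, 8.3% hold TTCNNNGAA and 1.15% hold TTCCNGGAA. A match in a single gene was not tested and is not read as particular to Socs3. In GENCODE the Socs3 gene spans chr11:117966079-117970047, so its window lies inside the gene. The Lifr and Osmr windows also lie inside their GENCODE genes. A match is a description of the letters and not a shown binding site.

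Stat3 and Socs3 moved together across samples, with a Pearson r of 0.78 over the 13 samples on the deposited log2 values, given as a description because the samples share groups. The libraries with the lowest Stat3 were the second library of miR-302 KO colony 1, at 27.1 CPM with Socs3 at 1.17 CPM, and both libraries of miR-290 KO colony 2, at 39.2 and 39.3 CPM with Socs3 at 13.5 and 34.5 CPM. The miR-290 KO colony 2 libraries thus had low Stat3 without the lowest Socs3. The closest pair of members was Jak1 and Jak2 (r of 0.90), followed by Lifr and Jak1 (0.88). Il6st correlated with the others at 0.52 to 0.58. Other pairs were as low, with Socs3 at 0.53 to 0.58 with Lifr, Jak1, Jak2 and Il6st, and Stat3 at 0.53 with Jak1.

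**Figure D2:**
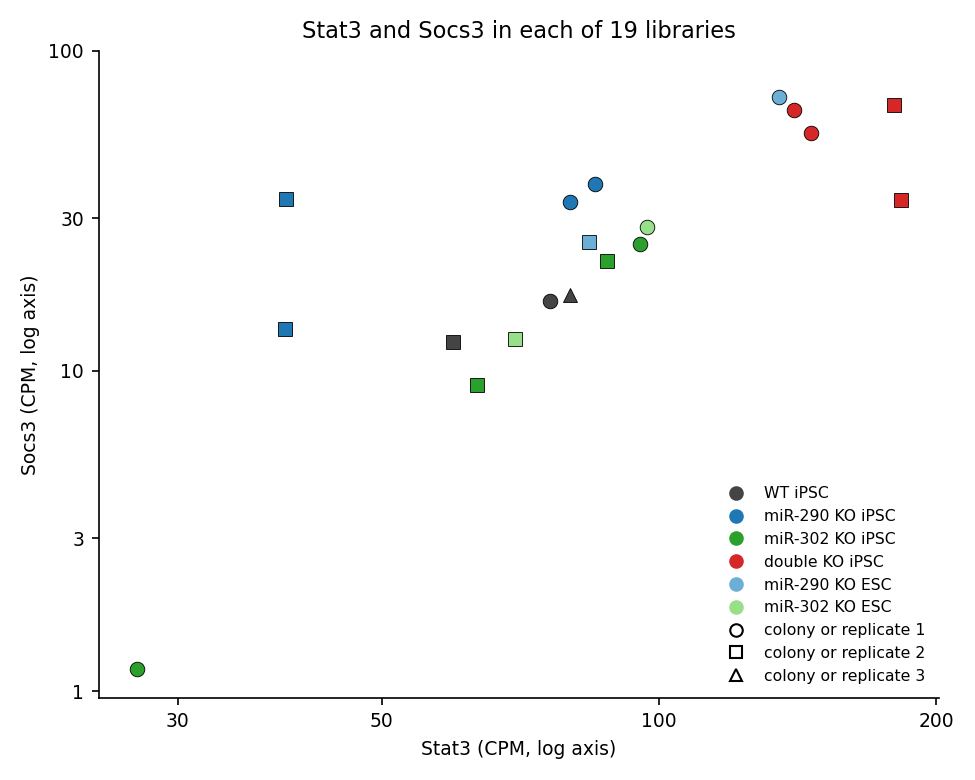
Socs3 (vertical axis, CPM, log scale) against Stat3 (horizontal axis, CPM, log scale) in each of the 19 libraries. Colours are groups and shapes are colonies or replicates; the double KO libraries have the highest Stat3, from 140 to 183 CPM, and the lowest point of both genes is miR-302 KO colony 1, library 2.

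Across the comparisons, members were called only where the double KO was compared with another genotype. A gene was called at an adjusted p under 0.05 in limma, with all 12778 genes in the fit. Against WT, 6 of 6 measured members were higher in the double KO, with a median log2 fold change of 1.55 against 0.16 over all genes. In that comparison 49% of all genes were called, 27.4% higher and 21.5% lower. Scaling by median of ratios moved the median of all genes to 0.01, and 5 of 6 members were still called higher; Il6st, at 0.73, had an adjusted p of 0.0752. Leaving out 1 sample at a time gave 4 to 6 called members. The comparisons with WT share the WT samples.

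Neither single deletion changed a member beyond the threshold. In miR-290 KO iPSC 0 of 6 members were called (1.57% of all genes were), and 2 members had an unadjusted p under 0.05 in limma. Their log2 fold changes ran from -0.32 for Stat3 to 0.92 for Jak2. In miR-302 KO iPSC 0 of 6 were called (0.0313% of all genes were), 2 had an unadjusted p under 0.05, and the values ran from -0.75 for Socs3 to 0.94 for Jak2. Between the single KO iPSC groups 0 of 6 were called (2.25% of all genes were), with 2 at an unadjusted p under 0.05. The largest of these differences was Socs3, 1.63 higher in miR-290 KO (95% interval 0.46 to 2.81, adjusted p of 0.135 by limma). The intervals include changes of 1 log2 unit or more in several members, so small changes on a single deletion were not detectable with 2 colonies.

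**Figure D3:**
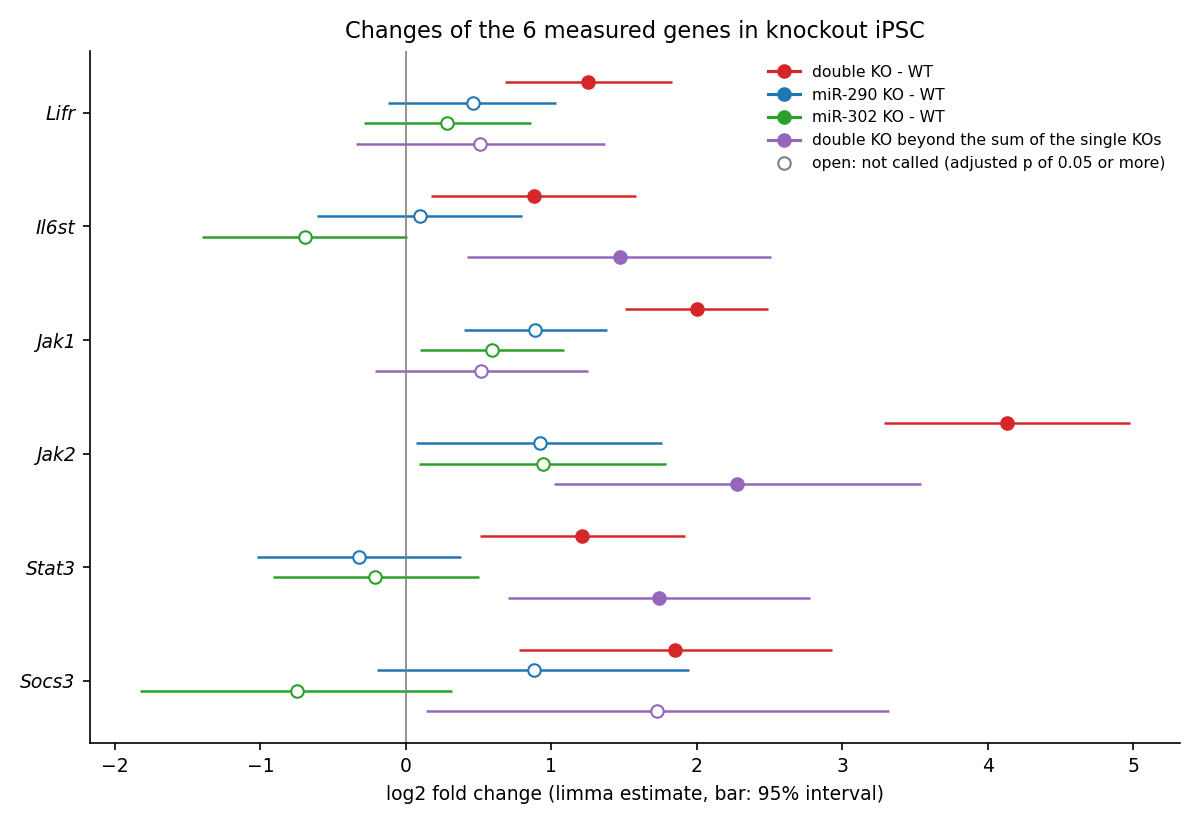
log2 fold change (horizontal axis) of each of the 6 measured genes in double KO, miR-290 KO and miR-302 KO iPSC against WT, and the part of the double KO change beyond the sum of both single KO changes. Bars are 95% intervals of the limma fit; filled points passed an adjusted p of 0.05. Double KO points are filled for all 6 genes, single KO points for none.

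Setting the double KO against each single KO asks what loss of the second cluster adds. Against miR-290 KO iPSC, 3 of 6 members were called, all higher: Jak1 by 1.11, Jak2 by 3.22 (SE 0.43) and Stat3 by 1.53 (SE 0.36). In this comparison 32.4% of all genes were called and 15.6% were higher. Lifr, at 0.80 (95% interval 0.17 to 1.43), had an adjusted p of 0.0526 by limma, and Socs3, at 0.98, one of 0.19. Without the low-Stat3 colony 2 of miR-290 KO, the Stat3 difference was 1.00 and its adjusted p 0.0705. Against miR-302 KO iPSC, 6 of 6 were higher, from 0.97 for Lifr to 3.20 for Jak2, with 46.9% of all genes called and 28.5% higher. Socs3 was higher by 2.61 (SE 0.54) there. Calls were lost in this comparison for Lifr without double KO colony 2 (0.61, adjusted p of 0.159 by limma), for Lifr and Stat3 without miR-302 KO colony 1 (0.98 and 1.15, adjusted p-values of 0.0545 and 0.0568), and for Lifr and Il6st with only the compared groups in the fit (0.97 and 1.57, adjusted p-values of 0.0631 and 0.0608).

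Whether the double KO change exceeds the sum of both single KO changes was tested as a contrast in the same fit. It did for 3 of 6 members: Jak2 by 2.28 (SE 0.58, adjusted p of 0.0146 by limma), Stat3 by 1.74 (SE 0.48, adjusted p of 0.0215) and Il6st by 1.47 (SE 0.48, adjusted p of 0.0438). Of all genes, 23.6% were called in this contrast and 12% were above the sum. For Lifr and Jak1 the excess was 0.51 (95% interval -0.34 to 1.37) and 0.52 (-0.21 to 1.25), and for Socs3 it was 1.73 (0.14 to 3.32, adjusted p of 0.107). The Stat3 and Il6st calls were lost when the divergent miR-302 KO library and the shallowest miR-290 KO library were left out, at 1.29 and 1.27 with adjusted p-values of 0.0673 and 0.0811. Jak2 kept its call there, at 2.21, but lost it without double KO colony 1 (1.90, adjusted p of 0.07 by limma). Over the 22 alternatives the call was lost in 15 for Il6st, in 4 for Stat3 and in 3 for Jak2. Without double KO colony 2 the Il6st excess was 0.75 (adjusted p of 0.151) and that of Stat3 1.57 (adjusted p of 0.0661). Leaving out miR-290 KO colony 2 or miR-302 KO colony 1 left 0 of 6 called, and leaving out double KO colony 2 left 1.

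Cell origin made no difference that passed the test. For miR-290 KO, ESC against iPSC gave 0 of 6 called members and 0% of all genes, with 1 member and 492 genes at an unadjusted p under 0.05 in limma. That member was Stat3, 0.89 higher in ESC (95% interval 0.12 to 1.66), where the low colony 2 belongs to the iPSC side. For miR-302 KO it was 0 of 6 and 0%, with 0 members and 1343 genes at an unadjusted p under 0.05. Between miR-290 KO and miR-302 KO ESC 0 of 6 were called, with 0 at an unadjusted p under 0.05, and 0.587% of all genes were. Il6st was 0.52 higher in miR-290 KO ESC (95% interval -0.25 to 1.29), and its libraries, 30.1 and 33.7 against 23.5 and 20.6 CPM, did not overlap; the same order held in iPSC, at 0.79 (0.02 to 1.56). Neither passed.

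Genes around the members were followed in 6 lists of 60 genes, of which 53 are in the matrix. In double KO against WT, 12 were higher, 14 lower and 27 not called, so 49.1% were called, with a median log2 fold change of 0.27. That share is the background share of 49% over all genes (27.4% higher, 21.5% lower), so the counts are not a result about these lists. No list gene was called in miR-290 KO or miR-302 KO iPSC against WT, where 8 and 5 genes had an unadjusted p under 0.05 in limma. Leaving out double KO colony 2 changed the counts to 8 higher and 13 lower.

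Calls among ligands and other receptor chains went in either direction, beside 27.4% of all genes higher and 21.5% lower. Of 4 measured ligands, 1 was lower: Osm, which encodes oncostatin M, had 251 reads over the WT libraries (5.09 ± 2.79 CPM, n = 3) and 1 read over the 4 double KO libraries. In CPM over the group, WT was 317-fold higher (95% exact interval 56.4 to 12576, counting error only). Osmr, the gene of its receptor chain, went the opposite way in the authors' deposited table. Lif itself, named after its value was seen, was low throughout, at 1.37 ± 0.421 CPM in WT (n = 3) and 3.37 ± 0.675 CPM in the double KO (n = 2). It was not called (1.25, adjusted p of 0.202 by limma). Of 4 other receptor chains, Il6ra, the interleukin-6 receptor, fell by 2.15 on the log2 scale (adjusted p of 0.0209), at 1.82 ± 0.738 CPM in WT (n = 3) and 0.303 ± 0.139 CPM in the double KO (n = 2). That call was lost without double KO colony 1 (-1.76, adjusted p of 0.137). Il11ra1 was higher by 2.45 (adjusted p of 0.000723), but it has close paralogs and its reads could not be recovered, so its value is uncertain.

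Of 7 other JAK and STAT genes, 0 were higher and 2 were lower, beside 27.4% and 21.5% of all genes. Stat4 fell by 4.62 (adjusted p of 5.7e-05 by limma), from 7.48 ± 2.4 CPM in WT (n = 3) to 0.276 ± 0.391 CPM (n = 2), and Stat2, which acts in the interferon response, fell by 1.53 (adjusted p of 0.00255). Tyk2, at 0.10, and Jak3, at 0.52, were not called. None of these 7 genes had a called increase. With so few genes this was not tested, and it does not make the increases particular to Jak1, Jak2 and Stat3.

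Of 15 other inhibitors, 5 were higher and 1 lower, beside 27.4% and 21.5% of all genes. Cish, a SOCS family gene induced mainly by STAT5, was higher by 3.37 (SE 0.56, adjusted p of 0.000359 by limma), at 2.31 ± 0.312 CPM in WT (n = 3) and 24.9 ± 6.79 CPM in the double KO (n = 2). The tyrosine phosphatase gene Ptpn9 was higher by 3.40 (SE 0.65, adjusted p of 0.000937), from 3.68 ± 0.687 to 38.9 ± 5.82 CPM. Socs5 was higher by 1.41, Ptpn1 by 1.01 and Socs2 by 0.92; the last was named after its value was seen, and it lost its call without double KO colony 2 (0.68, adjusted p of 0.0991). Pias2 fell by 1.23. Socs1, at -0.71, and Ptpn2, at -0.58, were not called. Of the 7 adaptors that link the receptor to the MAPK and PI3K pathways, Sos2 was higher by 2.45 and Ptpn11, which encodes SHP2, by 0.74, while Gab1 fell by 1.64, and 4 were not called.

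The 16 STAT3 target genes named in work on embryonic stem cells divided, with 8 lower and 4 higher in the double KO. Over all genes, 21.5% were lower and 27.4% higher, so the count of higher targets is near that share. The targets were not tested as a set. The lower ones include the transcription factors of naive pluripotency. Tfcp2l1 ranged from 288 to 443 CPM in the 3 WT libraries and from 0.807 to 9.1 CPM in the 4 double KO libraries, which is -6.95 on the log2 scale (SE 0.60, adjusted p of 1.68e-06 by limma). Klf4 went from 171 ± 48.9 to 10.2 ± 6.07 CPM (-4.12) and Klf5 from 262 ± 67.9 to 18.2 ± 10.6 CPM (-3.89). Klf4 was also a reprogramming factor, and whether reads of an introduced copy would be counted is not given in the sources used here. Gbx2 went from 8.18 ± 3.89 to 0.182 ± 0.258 CPM (-4.84).

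The 4 targets that were higher were Fos, Cebpd, Junb and Zfp36. Fos, a subunit of the AP-1 transcription factor, averaged 0.365 ± 0.213 CPM in WT (n = 3) and 10.4 ± 2.62 CPM in the double KO (n = 2), which is 4.48 on the log2 scale (SE 0.46, adjusted p of 7.88e-06 by limma). Cebpd, Junb and Zfp36, named after their values were seen, were higher by 3.66, 2.75 and 1.73, and all 3 lost their call without double KO colony 2, with adjusted p-values of 0.0801, 0.0621 and 0.0806. Of the lower targets also named after their values were seen, Pim1 fell by 2.50 and Mcl1 by 0.83; Mcl1 lost its call without double KO colony 2 (-0.62, adjusted p of 0.0641 by limma). Bcl3, at -1.97, lost its call without double KO colony 1 (-0.66). Pramel7, a member of a large gene family, had 84 reads in WT and 0 in the double KO. Most WT reads came from 1 library, at 5.04 CPM where the lowest WT library had 0.217 CPM, so no fold is given. It lost its call in 6 of 22 alternatives, among them the fit without WT replicate 3 (adjusted p of 0.11 by limma). Without double KO colony 2 the list had 1 higher and 6 lower. The loss of pluripotency genes described above moved with the lower targets of this list, and its part in these changes was not tested.

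**Figure D4:**
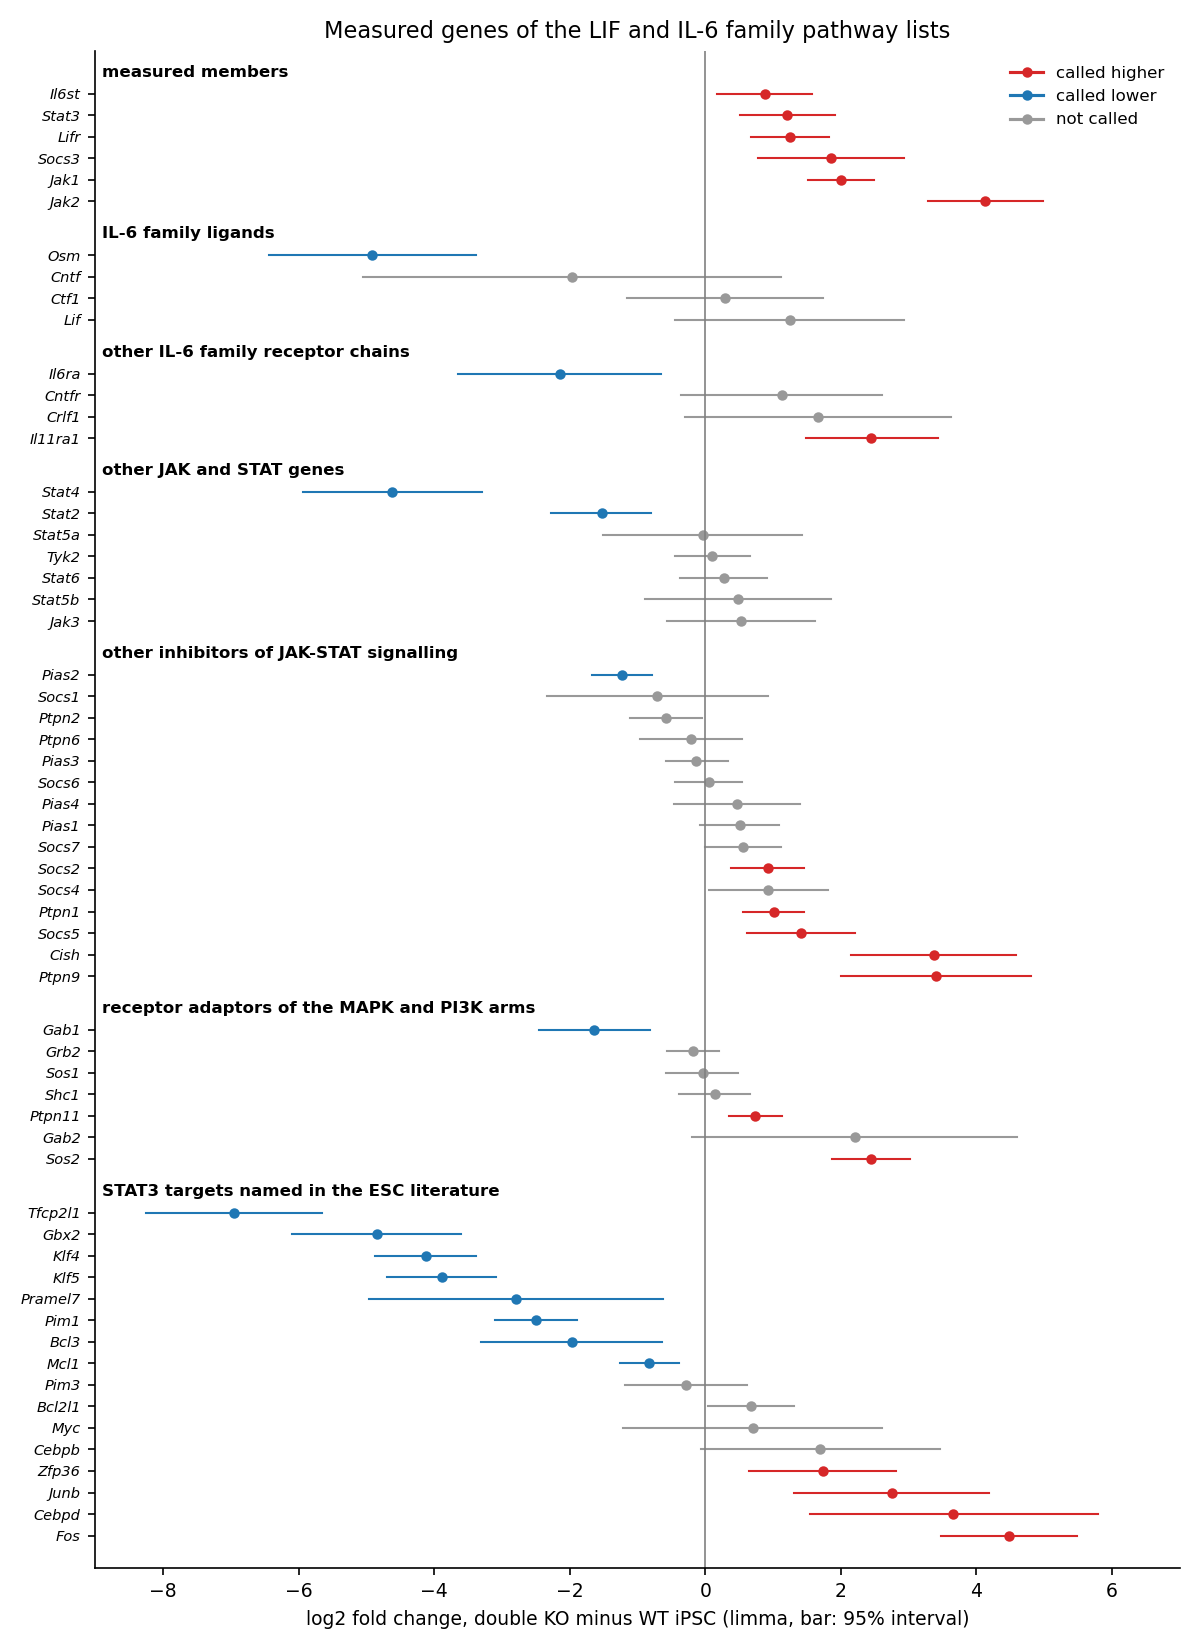
log2 fold change of double KO against WT iPSC (horizontal axis) for the 6 measured members and the 53 measured genes of the 6 lists. Points are limma estimates and bars their 95% intervals; red passed the test as higher, blue as lower, grey did not pass. The members all lie to the right, and the STAT3 targets spread from -6.95 for Tfcp2l1 to 4.48 for Fos.

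The genes whose pattern over the 13 samples was most like each member were ranked by Pearson r among 8195 genes with a mean of at least 10 CPM. For Jak1 they were Tnrc6b (r of 0.977), Soga3 (0.975) and Ptms (0.971), and for Jak2 Plod2 (0.973), Vezf1 (0.967) and Slc35b1 (0.966). For Lifr they were Tbck (0.930), Tmod3 (0.929) and Pdpk1 (0.917), for Il6st Cmas (0.940), Mknk2 (0.919) and Adipor1 (0.918), for Stat3 Parvb (0.932), Hmces (0.930) and Cited4 (0.920), and for Socs3 Zfp46 (0.945), Mfsd11 (0.938) and Glrx5 (0.929). No gene was among the 3 nearest of more than 1 member. These correlations describe 13 samples that share groups and have no p.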

How the data were processed

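QuantSeq libraries, which read the 3′ ends of messenger RNA, were made from 200 ng of total RNA and sequenced as single-end 50 bp reads, per the labels' protocols. The submitters' processing notes name Trim Galore 0.66, STAR, Salmon 1.4.0, FastQC 0.11.9, MultiQC, limma, DESeq2 1.34.0 and the build mm10, without their roles; how reads with several positions were counted is not given in the sources used here. The authors' deposited matrix holds log2 values for 12778 genes, not counts. They are log2 CPM with a small prior and a constant per gene, read from the values. Whole reads were recovered for 12239 genes (95.8%); 99.7% of their values were whole within 0.02 of a read, and the prior was 0.91 to 3.52 reads. The authors' deposited comparison tables, per the file headers, hold mean normalized signal (baseMean), log2 fold changes, a test score and p-values, limited to genes that passed. In the matrix, 6 columns that match no sample were not used.

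The 2 libraries of each colony were averaged on the log2 scale. All 13 samples in 6 groups entered 1 limma fit (limma 3.58.1, R 4.3.3) of the deposited log2 values, with 7 residual degrees of freedom; the spread was moderated across genes along their mean. P-values were adjusted by the Benjamini-Hochberg method over 12778 genes in each of 10 comparisons and called at 0.05; the fold change includes the prior, which shrinks low genes. The procedure was tested on simulated data. Members and lists were chosen with earlier results of these data known. By rule, all members and the 3 genes most like each member were named. List genes were named if called in double KO against WT (at most 5 per list by size) or in a single KO. Genes named after their values were seen are marked where they appear. Tyk2, Jak3, Socs1 and Ptpn2, which were not called, were also named outside this rule. A gene of the lists is not reported here. The search for seed sites was added after the data were seen. Intervals on reads cover counting error only, because PCR copies were not told apart by molecular identifiers. The alternatives tried were other scaling, filter, pseudocount, replication unit, weights, trend, samples in the fit, a replicate block, 2 libraries left out, and each sample left out.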

Additional observations from a re-analysis of the deposited data

Results flagged for a closer look

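Socs3 in the 4 miR-290 KO iPSC libraries had a low value that stands apart: the first library of colony 2 had 13.5 CPM and the others 33.8 to 38.3 CPM, a gap of 0.889 of the range on the deposited log2 values. Of 18 groups of 4 libraries tested this was the only such gap. About 1 in 20 groups is set apart by chance, and the libraries of a colony share a source. The change on loss of miR-302 differed between miR-290 KO and WT cells for 3 members, by the contrast that tests departure from additivity: by 1.47 on the log2 scale for Il6st, 2.28 for Jak2 and 1.74 for Stat3. Of these, the call for Il6st was lost in 15 of 22 alternatives.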

How the results depend on the processing

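Each of the 60 fold changes of the members was recomputed under 22 alternatives, 1320 values in all. Of these 1240 kept their direction and their side of the threshold, 42 lost a call, 13 gained a call and 25 changed sign. Jak1, Jak2 and Lifr kept their call in double KO against WT throughout, and Il6st lost it in 12 of 22. Counts of called members moved as follows. In miR-290 KO iPSC against WT, 1 member (Jak1) was called in place of 0 with log2(CPM + 1), with each library as a sample and with estimated weights; in the departure from additivity, 1 was called in place of 3 with 2 libraries left out. Leaving out 1 sample at a time gave 0 to 1 for miR-290 KO iPSC against WT, 2 to 5 for double KO against miR-290 KO (5 without double KO colony 1), 4 to 6 for double KO against miR-302 KO (4 without miR-302 KO colony 1), 0 to 1 between the single KO iPSC (1 without miR-302 KO colony 2) and 0 to 3 for the departure from additivity. The call of Jak1 in miR-290 KO iPSC was gained when either miR-302 KO ESC library was left out. Of 27 fold changes of list genes, recomputed as 592 values, 570 kept direction and call, 21 lost a call, 1 gained one and 0 changed sign. The causes of these changes were not tested.

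None of the values that changed sign passed the test in the fit reported. Under median-of-ratios scaling they were Il6st in miR-290 KO iPSC against WT (-0.04), Lifr between the single KO iPSC (-0.03) and Jak2 in miR-302 KO ESC against iPSC (-0.04). With log2(CPM + 1), Jak1 between the ESC groups was 0.00. With 2 libraries left out, Stat3 and Socs3 in miR-302 KO iPSC against WT were 0.25 and 0.31, and Jak2 in miR-290 KO ESC against iPSC was 0.08. In miR-302 KO ESC against iPSC that setting gave -0.05 for Il6st, 0.15 for Jak1, -0.19 for Jak2 and -0.03 for Stat3. Leaving out 1 sample at a time, Stat3 ranged from -0.85 to 0.21 in miR-290 KO iPSC and from -0.48 to 0.07 in miR-302 KO iPSC, both against WT. Between the single KO iPSC, Jak2 ranged from -0.20 to 0.15 and Stat3 from -0.64 to 0.42. In miR-290 KO ESC against iPSC, Lifr ranged from -0.28 to 0.12, Jak2 from -0.28 to 0.04 and Socs3 from -0.15 to 1.35. In miR-302 KO ESC against iPSC, Jak1 ranged from -0.38 to 0.24 and Jak2 from -0.09 to 0.25, and between the ESC groups Jak1 ranged from -0.31 to 0.30.

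Replicate numbers are shared between groups, and the colonies were derived separately. Same-numbered samples, as deviations from their group means, had correlations of -0.27 to 0.18 over 30 pairs. In groups of 2 samples the deviations mirror each other, so pairs of such groups give the same value for both numbers. The pairs are therefore not all separate, and the correlations cannot show whether sources are shared. With the number as a replicate block, 5 of 6 members were called in double KO against WT, and Il6st was not (0.83, adjusted p of 0.0924 by limma); Il6ra, Bcl3 and Pramel7 also lost their calls. A fit with 1 colony left in a group assumes that it varies like the others. Each KO iPSC group had 2 colonies, while the WT samples, and the libraries within an ESC group, may share a source. The spread between derivations therefore rests on few samples. Low genes such as Jak2 in WT are shrunk by the prior.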
